A study of Mus musculus with 20 samples.

Results

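Macrophage and myeloid genes were followed through sham-operated and denervated gastrocnemius (GAS) muscle. The 34 genes were chosen by their symbols as markers of macrophages and related myeloid cells, with earlier results of these data known. All 34 were found among the 32285 genes of the expression table. All 34 also passed the filter on low values, which 17948 genes passed. The genes fell into 8 role groups: macrophage identity, complement C1q, leukocyte surface and adhesion, chemokine receptors, Fc receptors with their ITAM adaptors, MHC class II, lysosome with oxidase and antimicrobial genes, and damage-associated genes.

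Macrophages are phagocytes that derive from circulating monocytes or are maintained within the tissue, and skeletal muscle holds them between its fibers. They engulf debris through Fc and complement receptors, digest it in lysosomes, present peptides on MHC class II and release factors that act on satellite cells and fibroblasts. In whole muscle, the RNA of these cells is mixed with that of muscle fibers, so that fewer macrophages and less RNA per macrophage cannot be told apart.

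The muscles came from 12-week-old male mice at day 7 after surgery, with 5 libraries in each of 4 groups. WT mice were C57BL/6, and Opg-/- mice were homozygous for Tnfrsf11btm1Smoc, a whole-body knockout of the gene encoding osteoprotegerin (OPG), the decoy receptor for RANKL. On the right side the sciatic nerve was cut (den), and on the left side it was exposed but kept intact (sham). Sham therefore means the opposite limb of an operated mouse, and no muscle from an unoperated mouse entered the comparison.

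Each value is an estimated read number per gene divided by a factor for its library, not corrected for gene length. The 20 libraries held between 15186247 and 20102295 recovered reads, and 1 read was worth about 1 unit. WT sham 1 and 2 differed by less than sampling noise (chi-square per degree of freedom of 0.338, against 7.14 to 27.5 for the other 39 pairs within groups) and were averaged and counted as 1 sample, which left n = 4 in WT sham and n = 5 elsewhere. Tnfrsf11b itself went against the genotype labels, although near the limit of detection: it was 1.18 to 5.51 within WT sham, 1.73 to 6.38 within WT den, 6.06 to 11.2 in the sham libraries labelled Opg-/- and 1.89 to 11.9 in the den libraries labelled Opg-/-, and between the sham groups its log2 fold change was 1.48 (adjusted p = 0.19). The deleted part of the gene is not given in the sources used here. Opg-/- therefore stands here for the libraries labelled Opg-/-. Muscle identity was plain in every group, as Ckm, the creatine kinase of muscle, averaged 452863 for WT sham and 526276 for Opg-/- sham. Values per library below follow the replicate numbers, beginning in WT sham with the averaged pair.

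Levels among the 34 genes spanned a wide range, which was compared per kilobase of exon. In WT sham, Lyz2, lysozyme of myeloid cells, stood highest with a mean of 817 per kilobase, followed by Cd74, the invariant chain that escorts MHC class II, with 748. C1qa and C1qb, which encode chains of the complement initiator C1q, followed with 257 and 239.9 per kilobase. At the other end, Cx3cr1, the fractalkine receptor, had 1.24, Fcgr1, the high-affinity receptor for IgG, had 1.96 and Ms4a7 had 2.64. Recovered reads for Cx3cr1 ranged from 1 to 8 per library in the sham groups and those for Fcgr1 from 1 to 10, so both rest on few reads there.

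Several members sit side by side in the genome (mm10). C1qb, C1qc and C1qa follow each other on chromosome 4 between 136880129 and 136898803, and H2-Ab1, H2-Aa and H2-Eb1 lie on chromosome 17 between 34257689 and 34316674. Fcgr3 and Fcer1g, a receptor for IgG and the signaling chain it uses, lie on chromosome 1 from 171051174 to 171064935 and from 171229572 to 171234365. The values of 5 members that share exon bases with another gene are less certain. On the same strand, Itgam, integrin alpha M, shares 68.7% of its exon bases with Gm49368, Spp1, osteopontin, shares 18.8% with Gm42793, and Cd74, the class II invariant chain, shares 0.715% with Mir5107. No value was available for Gm49368, Gm42793 or Mir5107, so whether they took reads from these members is not known. On the opposite strand, which these libraries do not tell apart since they were not strand-specific, Csf1r, the receptor for colony stimulating factor, shares 15.1% with Hmgxb3, and Cx3cr1 shares 1.73% with Gm33858.

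**Figure D1:**
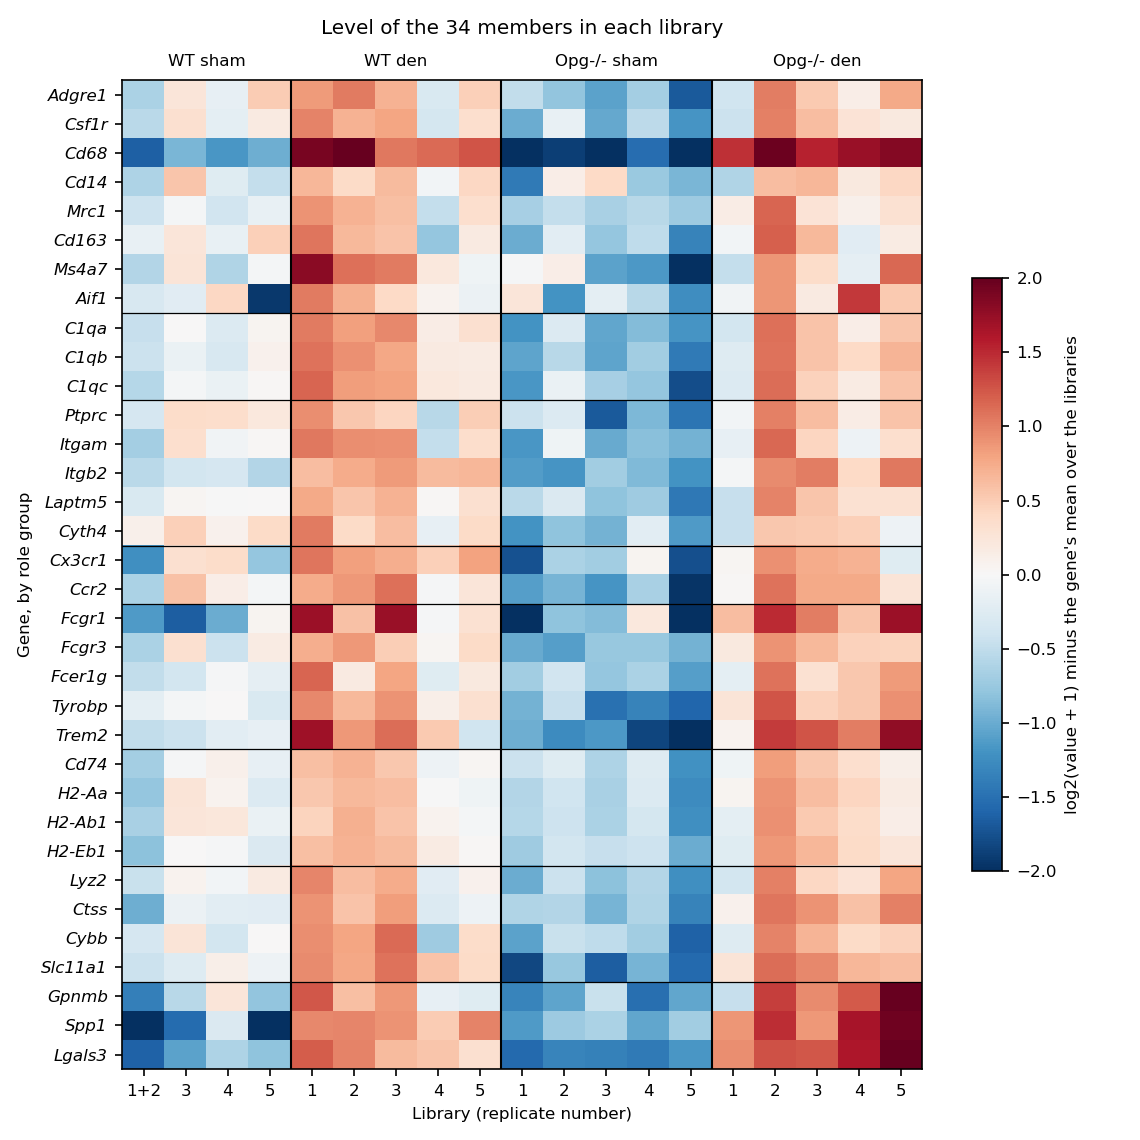
Heat map of the 34 genes (rows, by role group) in the 19 libraries (columns, by group), as log2(value + 1) minus the mean of the gene over the libraries. Colors are capped at 2 above and below the mean, the first WT sham column is the average of libraries 1 and 2, and the Opg-/- sham columns are mostly blue while the den columns are mostly red, with paler columns at WT den 4 and Opg-/- den 1.

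Libraries of the same group differed across most of the 34 genes at once, as the heat map shows. In WT sham, the averaged pair had the lowest value of the group for 27 of the 34 genes, against 23.4% of all genes tested. WT den 4 was lowest for 21 of 34 (21.3% of all genes) and WT den 1 was highest for 21 (18.2%). Among Opg-/- libraries, sham 5 was lowest for 24 of 34 (17.9%), den 1 was lowest for 29 (21.6%) and den 2 was highest for 25 (16.3%). The spread within a group is thus shared by the members, and the 34 genes are not 34 separate observations of a group.

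To place the members on the genome, the 250 bases before the transcription start were read from RefSeq (GRCm38.p6, the same coordinates as mm10) for 5 genes on which the comparisons below turn. A promoter entry was matched for 26 of the 34 genes, with 30 windows of 300 bases that run from 250 bases before the start to 50 after it. The letters searched, on both strands, were GAGGAA, the core bound by the myeloid transcription factor PU.1, the longer GAGGAAGT, which contains that core, and ATTGG, the Y box of MHC class II promoters. Capitals mark GAGGAA or GAGGAAGT in the first 4 sequences and ATTGG in H2-Aa. The stretches are chr1:74374953-74375202 on the plus strand for Slc11a1, chr11:69666171-69666420 on the minus strand for Cd68, chr5:104434861-104435110 on the plus strand for Spp1, chr4:136886201-136886450 on the minus strand for C1qb and chr17:34287824-34288073 on the minus strand for H2-Aa, each written 5′ to 3′ along the gene.
Slc11a1: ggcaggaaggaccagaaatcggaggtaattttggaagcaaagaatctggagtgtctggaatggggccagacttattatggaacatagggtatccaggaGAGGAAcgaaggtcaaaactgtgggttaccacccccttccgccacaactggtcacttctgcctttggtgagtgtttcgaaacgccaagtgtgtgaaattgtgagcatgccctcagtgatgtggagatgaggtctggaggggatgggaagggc
Cd68: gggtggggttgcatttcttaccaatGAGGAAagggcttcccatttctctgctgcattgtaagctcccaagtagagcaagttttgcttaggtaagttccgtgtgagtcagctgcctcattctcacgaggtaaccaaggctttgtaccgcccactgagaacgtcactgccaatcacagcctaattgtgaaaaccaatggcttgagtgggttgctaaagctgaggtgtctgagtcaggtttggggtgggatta
Spp1: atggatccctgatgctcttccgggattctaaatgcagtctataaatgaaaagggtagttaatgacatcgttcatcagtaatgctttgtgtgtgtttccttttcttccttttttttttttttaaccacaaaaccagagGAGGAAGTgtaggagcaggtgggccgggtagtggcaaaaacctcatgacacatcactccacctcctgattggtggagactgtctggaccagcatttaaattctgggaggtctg
C1qb: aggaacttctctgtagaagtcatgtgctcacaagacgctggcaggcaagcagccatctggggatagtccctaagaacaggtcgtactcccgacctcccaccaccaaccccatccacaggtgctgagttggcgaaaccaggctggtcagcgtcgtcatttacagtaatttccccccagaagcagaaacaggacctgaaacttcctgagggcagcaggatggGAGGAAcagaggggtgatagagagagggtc
H2-Aa: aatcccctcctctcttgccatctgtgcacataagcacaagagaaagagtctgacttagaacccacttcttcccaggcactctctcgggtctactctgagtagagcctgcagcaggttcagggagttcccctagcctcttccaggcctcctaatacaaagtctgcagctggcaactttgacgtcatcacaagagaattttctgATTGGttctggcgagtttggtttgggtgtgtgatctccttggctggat

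In these stretches GAGGAA began 152 bases before the start of Slc11a1, 225 before that of Cd68 and 30 before that of C1qb. GAGGAAGT began 113 bases before the start of Spp1, and ATTGG began 48 bases before that of H2-Aa. In the full windows, GAGGAA was present in 18 of 30 (60%) against 28.3% of the 32851 windows of all genes. GAGGAAGT was present in 4 of 30 windows (13.3%), those of Spp1, C1qc, Ctss and Cyth4, against 3.20% of all. ATTGG was present in 12 of 30 (40%) against 37.4% of all windows. A match is a description of the letters and not a bound site.

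Myeloid genes were higher after denervation in both genotypes. In WT, 17 of the 34 genes were higher in den at adjusted p under 0.05 and none was lower (limma with Benjamini-Hochberg adjustment over 17948 genes), where 26.9% of all genes tested were called higher. In the libraries labelled Opg-/-, 34 of 34 were higher, where 28.6% of all genes tested were called higher. All 34 fold changes were positive in each genotype. Their median log2 fold change was 0.69 in WT, beside 0.00 for all genes tested, and 1.32 in Opg-/-, beside 0.02. Values of the den and sham groups did not overlap for 11 of 34 genes in WT, against 22.8% of all genes, and for 22 of 34 in Opg-/-, against 21.4%.

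The WT count rested on particular libraries and on the scaling. It was 10 without the averaged WT sham pair, 11 without WT den 1 and 31 when every library was scaled to the same total, which put the median log2 fold change of all genes at 0.26 in WT and 0.42 in Opg-/-. Over all genes, 4827 were called higher and 4604 lower in WT, which became 7034 and 2724 with equal totals, and the 5125 higher and 4736 lower in Opg-/- became 8521 and 2296. The 4827 called higher in WT became 4652 without the averaged WT sham pair and 4681 without WT den 1. The member medians with equal totals were 0.997 in WT and 1.76 in Opg-/-, and all 34 stayed on the higher side of 0 in both. The Opg-/- count was between 31 and 34 when any 1 library was left out.

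**Figure D2:**
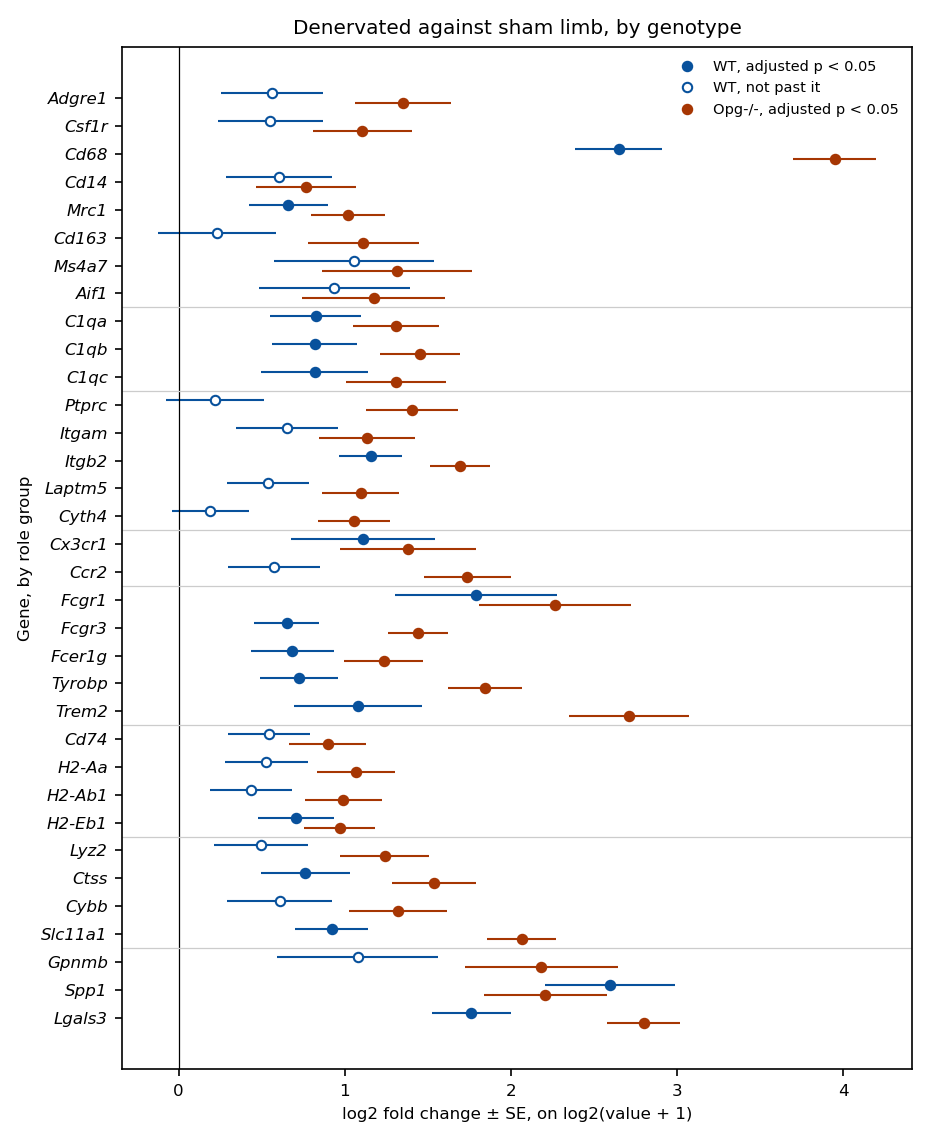
Log2 fold change of den against sham (x axis, points with the SE as bars) for each of the 34 genes (y axis, by role group), in WT (blue) and Opg-/- (brown), with filled points for adjusted p under 0.05. All points lie above 0, 17 WT points and 34 Opg-/- points are filled, and Cd68 reaches 2.65 and 3.95.

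Among the identity genes, Cd68 changed most. Cd68, a lysosomal membrane glycoprotein of macrophages (chromosome 11, 69664213 to 69666153), had values of 36.0, 60.0, 50.5 and 57.3 across WT sham and 428, 471, 238.05, 252 and 273 across WT den. In the libraries labelled Opg-/-, it had 25.5, 30.2, 16.8, 39.1 and 13.1 in sham and 317, 445, 333, 379 and 407 in den. Every den library stood above every sham library. The rise had a log2 fold change of 2.65 ± 0.26 (SE), adjusted p = 2.9e-08 in WT and a log2 fold change of 3.95 ± 0.25 (SE), adjusted p = 1.8e-11 in Opg-/-. Eif4a1, a translation factor, is encoded 782 bases upstream of Cd68 on the same strand and rose in WT, with 2237 ± 77.0 (SD, n = 4) under sham and 9014 ± 445 (SD, n = 5) under den, a log2 fold change of 2.01 ± 0.07 (SE), adjusted p = 5.6e-20; the part of Eif4a1 in the Cd68 values was not tested.

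Csf1r, the receptor that macrophages need for survival, had the highest mean of the identity group. It read 256, 465, 324 and 423 across WT sham and 740.0, 602, 648, 292 and 468 across WT den, which overlapped at WT den 4. The libraries labelled Opg-/- had 188, 336, 182, 258 and 164 in sham and 277, 746, 571, 451 and 425 in den, where den 1 lay below sham 2. Csf1r passed the test in Opg-/- (log2 fold change of 1.10 ± 0.30 (SE), adjusted p = 0.0049), and in WT it had a log2 fold change of 0.55 ± 0.32 (SE), adjusted p = 0.162. Mrc1, the mannose receptor, rose in both genotypes, with log2 fold changes of 0.66 in WT (adjusted p = 0.026) and 1.02 in Opg-/- (adjusted p = 8.0e-04). The other 5 identity genes passed the test in Opg-/- and not in WT. Of these, Adgre1, which encodes the F4/80 antigen, averaged 65.8 for WT sham, 98.0 for WT den, 33.9 for Opg-/- sham and 89.6 for Opg-/- den. Cd163, the scavenger receptor for hemoglobin and haptoglobin, averaged 329, 413, 183 and 409 in the same order. Cd14, Ms4a7 and Aif1 had log2 fold changes of 0.77, 1.31 and 1.17 in Opg-/-.

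The 3 chains of C1q moved by nearly the same amount. C1qb had values of 219.7, 271, 238.4 and 315 across WT sham and 630.1, 558, 506, 338 and 332 across WT den, without overlap. Opg-/- libraries held 142, 201, 142, 183 and 111 in sham and 248, 628, 443, 393 and 479 in den, again without overlap. C1qa, C1qb and C1qc rose in WT with log2 fold changes of 0.83, 0.82 and 0.82 (adjusted p = 0.018, 0.012 and 0.042) and in Opg-/- with 1.31, 1.45 and 1.31.

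Of the leukocyte surface genes, Itgb2, the beta-2 integrin chain that pairs with Itgam, passed in both genotypes. Itgb2 had 45.9, 51.8, 52.6 and 44.1 across WT sham and 103, 113, 121, 104 and 106 across WT den, a log2 fold change of 1.16 ± 0.19 (SE), adjusted p = 7.5e-06. For Opg-/-, these were 30.3, 28.9, 40.7, 35.8 and 28.6 in sham and 65.2, 130.2, 137, 88.2 and 139 in den, a log2 fold change of 1.69 ± 0.18 (SE), adjusted p = 3.3e-09. Laptm5, a lysosomal protein of blood cells and the highest of this group, had 159.5, 204, 198 and 198 across WT sham, 335, 290.3, 319.8, 202 and 248 across WT den, 136, 162, 113, 121 and 72.8 across Opg-/- sham and 144, 394, 292, 245 and 245 across Opg-/- den. Laptm5 rose in Opg-/- (log2 fold change of 1.10 ± 0.23 (SE), adjusted p = 5.5e-04), and in WT it had a log2 fold change of 0.54 ± 0.25 (SE), adjusted p = 0.078. Its groups overlapped by 1 library on each side in both genotypes, WT den 4 lying below WT sham 3 and Opg-/- den 1 below Opg-/- sham 2. Ptprc, which encodes CD45, and Cyth4, a guanine nucleotide exchange factor of leukocytes, had the smallest WT log2 fold changes of the 34 genes, 0.22 and 0.19, but rose by 1.41 and 1.06 in Opg-/-.

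Of the 2 chemokine receptors, Cx3cr1 rose in both genotypes and Ccr2 in Opg-/-. Ccr2, the receptor of inflammatory monocytes for CCL2, had 40.4, 95.3, 69.8 and 61.7 across WT sham and 107, 116, 137, 62.5 and 74.9 across WT den, which overlapped and did not pass the test (log2 fold change of 0.58 ± 0.28 (SE), adjusted p = 0.085). With the Opg-/- label, the values were 29.1, 32.7, 27.5, 40.2 and 15.5 in sham and 64.3, 135, 108, 108 and 76.2 in den, without overlap and with a log2 fold change of 1.74 ± 0.26 (SE), adjusted p = 3.1e-06. Cx3cr1 had 2.18, 8.24, 8.59 and 3.31 across WT sham and 14.6, 12.1, 11.2, 9.33 and 11.96 across WT den, a log2 fold change of 1.11 ± 0.43 (SE), adjusted p = 0.033, and 1.19 to 6.71 within Opg-/- sham and 5.25 to 12.9 within Opg-/- den. The WT call of Cx3cr1 was lost without the averaged WT sham pair (log2 fold change of 0.81), WT sham 5 (0.96), WT den 1 (1.04), WT den 2 (1.10) or WT den 5 (1.10).

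The Fc receptors and the adaptors that carry their signal through ITAM motifs passed the test as a whole group, 5 of 5 in each genotype. Fcgr3 had 52.1, 102, 60.1 and 91.5 across WT sham, 136, 149.9, 115, 84.0 and 107 across WT den, 40.004, 37.7, 47.9, 48.1 and 41.8 across Opg-/- sham and 93.6, 153, 128, 113 and 111 across Opg-/- den, so that WT den 4 lay within the WT sham range. It shares sequence with the inhibitory receptor gene Fcgr2b. Fcgr1 had 3.77, 2.35, 4.30 and 9.92 across WT sham and 33.5, 14.7, 33.7, 9.33 and 11.96 across WT den, a log2 fold change of 1.79 ± 0.49 (SE), adjusted p = 0.0027, and 1.21, 5.03, 4.79, 11.2 and 1.19 across Opg-/- sham and 15.1, 28.4, 20.2, 14.4 and 33.3 across Opg-/- den, a log2 fold change of 2.27 ± 0.46 (SE), adjusted p = 1.1e-04. The Fcgr1 groups overlapped at WT den 4 and WT sham 5 and did not overlap in Opg-/-. Trem2, a lipid-sensing receptor that signals through Tyrobp, had 15.7, 16.5, 19.3 and 19.8 across WT sham and 74.7, 41.6, 49.7, 32.7 and 16.7 across WT den, with WT den 5 inside the sham range. Opg-/- libraries held 10.9, 8.80, 9.58, 5.59 and 2.39 in sham and 23.6, 61.2, 55.1, 46.7 and 79.7 in den, a log2 fold change of 2.71 ± 0.36 (SE), adjusted p = 2.7e-07. Tyrobp and Fcer1g, the adaptor chains, rose by 0.72 and 0.68 in WT and by 1.84 and 1.23 in Opg-/- on the log2 scale.

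MHC class II genes had the smallest median of the 8 role groups in Opg-/-, with a median log2 fold change of 0.98. Cd74 had 876, 1388, 1506 and 1255 across WT sham, 2131, 2282, 2047, 1303 and 1438 across WT den, 1046, 1191, 913, 1178 and 609 across Opg-/- sham and 1324, 2513, 2052, 1769 and 1521 across Opg-/- den. The den and sham values of Cd74 overlapped in WT and did not overlap in Opg-/-, where it had a log2 fold change of 0.90 ± 0.23 (SE), adjusted p = 0.0034. H2-Eb1 was the single class II member called in WT, with 0.71 (adjusted p = 0.016), beside 0.53 for H2-Aa (adjusted p = 0.091) and 0.44 for H2-Ab1 (adjusted p = 0.156). In Opg-/-, H2-Aa, H2-Ab1 and H2-Eb1 rose by 1.07, 0.99 and 0.97.

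Lyz2 had 813, 1159, 1071 and 1257 across WT sham and 2175, 1704, 1849, 941 and 1173 across WT den, where WT den 4 and 5 did not exceed the highest sham library. For Opg-/-, these were 555, 818, 627, 733 and 472 in sham and 860.3, 2223, 1473, 1340.3 and 1923 in den, a log2 fold change of 1.24 ± 0.27 (SE), adjusted p = 8.6e-04. Lyz1, a close relative that can share reads with Lyz2, fell in both genotypes, with WT means of 60.8 ± 17.2 (SD, n = 4) under sham and 28.0 ± 10.4 (SD, n = 5) under den (adjusted p = 4.2e-04) and Opg-/- means of 62.1 ± 10.04 (SD, n = 5) and 37.2 ± 9.71 (SD, n = 5) (adjusted p = 0.01). Slc11a1, the metal transporter of phagosomes (chromosome 1, 74375195 to 74386062), had 42.9, 48.2, 63.4 and 54.0 across WT sham and 113, 99.7, 124, 86.8 and 76.5 across WT den, without overlap (log2 fold change of 0.92 ± 0.22 (SE), adjusted p = 7.9e-04). With the Opg-/- label, the values were 15.8, 33.9, 17.96, 30.2 and 19.1 in sham and 70.0, 128, 114, 92.5 and 90.2 in den, also without overlap (log2 fold change of 2.07 ± 0.21 (SE), adjusted p = 1.1e-09). Ctss, cathepsin S, which trims the invariant chain, rose by 0.76 in WT and 1.54 in Opg-/-. Cybb, the membrane subunit of the NADPH oxidase, passed in Opg-/- with 1.32 and had 0.61 in WT (adjusted p = 0.112).

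Of the 3 damage-associated genes, 2 passed the test in WT and 3 in Opg-/-. Spp1, which encodes osteopontin, had 14.6, 44.7, 107 and 31.98 across WT sham and 258, 260.0, 245, 188 and 262 across WT den, a log2 fold change of 2.60 ± 0.39 (SE), adjusted p = 2.6e-05. Opg-/- libraries held 59.4, 79.2, 85.0, 63.7 and 81.2 in sham and 245, 368, 242, 413 and 509 in den, a log2 fold change of 2.21 ± 0.37 (SE), adjusted p = 7.3e-05. Lgals3, galectin-3, had 120.2, 176, 241 and 212 across WT sham and 853, 733, 574, 541 and 463 across WT den (log2 fold change of 1.76 ± 0.23 (SE), adjusted p = 5.9e-06). For Opg-/-, these were 125, 148, 144, 139 and 165 in sham and 707, 898, 880.2, 1141 and 1605 in den (log2 fold change of 2.80 ± 0.22 (SE), adjusted p = 7.3e-09). Neither Spp1 nor Lgals3 overlapped between den and sham in either genotype. Gpnmb, a glycoprotein of phagosome maturation, had 60.7, 107, 188 and 91.5 across WT sham and 377, 241, 290.1, 141 and 133 across WT den, which overlapped (log2 fold change of 1.08 ± 0.49 (SE), adjusted p = 0.076). With the Opg-/- label, the values were 63.0, 75.4, 116, 54.8 and 76.4 in sham and 115, 415, 304, 372 and 867 in den, where den 5 was highest and den 1 lay inside the sham range (log2 fold change of 2.18 ± 0.46 (SE), adjusted p = 7.0e-04). These genes are also expressed by cells other than macrophages.

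**Figure D3:**
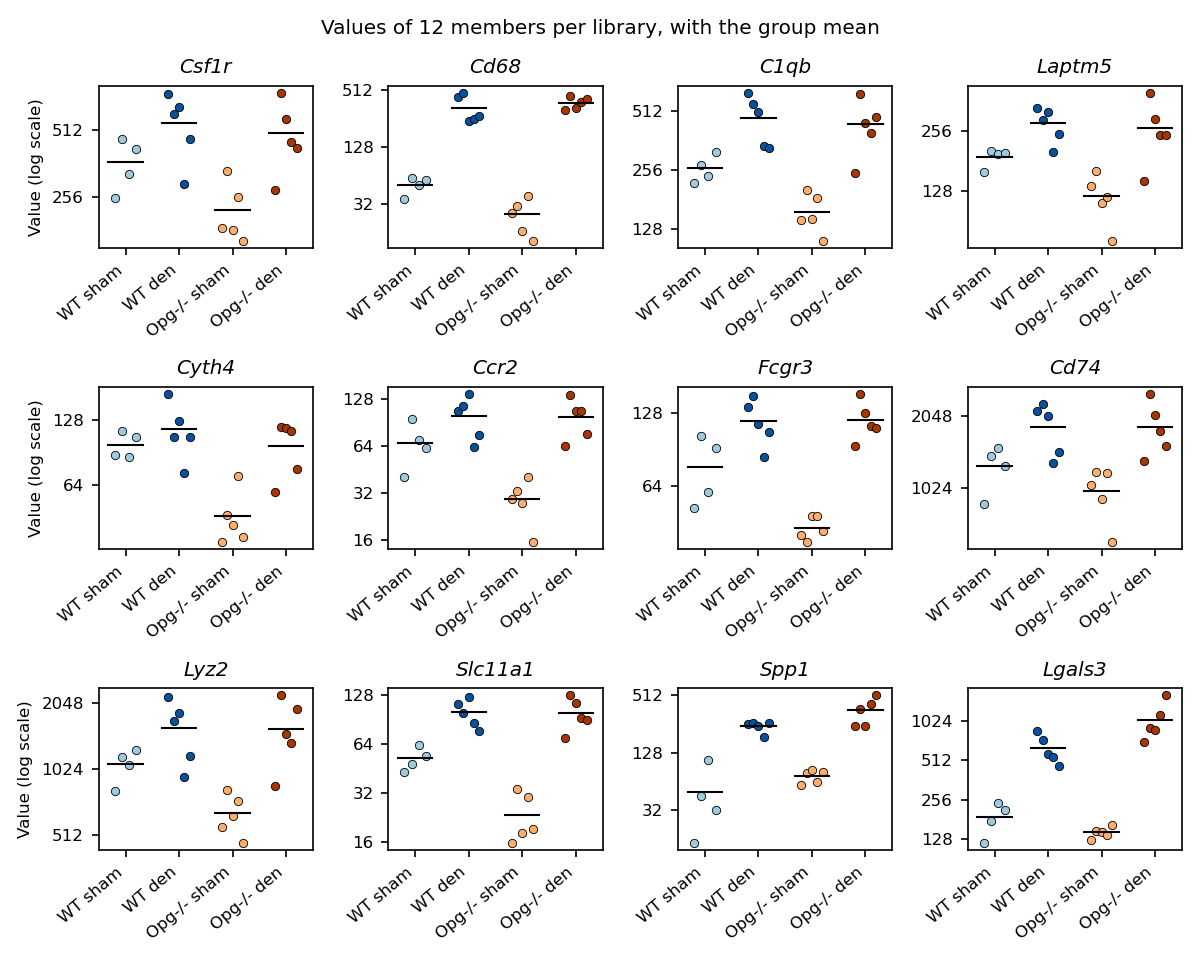
Values of 12 of the 34 genes in each library (y axis, log scale) by group (x axis), with a point per library and a line at the group mean. In the panel of Slc11a1, Opg-/- sham lies at 15.8 to 33.9 and WT sham at 42.9 to 63.4, while both den groups lie higher.

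The level in the sham limb was then compared between the genotypes. Of the 34 genes, 33 had a lower fitted level in the sham libraries labelled Opg-/- than in WT sham, with Spp1 the exception, and the median log2 fold change was -0.71, beside 0.02 for all genes tested. At adjusted p under 0.05, 2 of the 34 genes, Slc11a1 and Cyth4, were lower and none was higher, where 0.0669% of all genes tested were called lower. At an unadjusted p under 0.05, 20 were lower, against 5.32% of all genes, and 1, Spp1, was higher. Values of Opg-/- sham lay wholly below those of WT sham for 11 of 34 genes, against 1.28% of all genes: Slc11a1, Cyth4, Trem2, Ccr2, Tyrobp, Fcgr3, Cybb, Cd163, C1qb, Itgb2 and Mrc1. Because the members were chosen with earlier results of these data known, the shares of all genes describe the list and do not test it.

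Slc11a1 averaged 52.1 ± 8.75 (SD, n = 4) for WT sham and 23.4 ± 8.11 (SD, n = 5) for Opg-/- sham, with a log2 fold change of -1.17 ± 0.22 (SE), adjusted p = 0.026. Cyth4 had 88.2, 114, 87.0 and 107 across WT sham and 35.2, 46.5, 41.9, 70.4 and 37.0 across Opg-/- sham, a log2 fold change of -1.12 ± 0.23 (SE), adjusted p = 0.047. Trem2 averaged 17.8 ± 2.07 (SD, n = 4) and 7.45 ± 3.44 (SD, n = 5) (log2 fold change of -1.28 ± 0.38 (SE), adjusted p = 0.191), and Ccr2 averaged 66.8 ± 22.7 (SD, n = 4) and 29.0 ± 8.997 (SD, n = 5) (log2 fold change of -1.17 ± 0.28 (SE), adjusted p = 0.095). Tyrobp averaged 47.6 ± 4.87 (SD, n = 4) and 23.8 ± 8.65 (SD, n = 5) (adjusted p = 0.07). The smallest differences were those of Aif1 (-0.07), Fcgr1 (-0.26), H2-Eb1 (-0.31) and Cd14 (-0.31), none of which passed the test. Spp1 averaged 49.7 ± 40.4 (SD, n = 4) for WT sham and 73.7 ± 11.4 (SD, n = 5) for Opg-/- sham, and its WT sham values of 14.6, 44.7, 107 and 31.98 spread on both sides of the Opg-/- values.

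The 2 sham calls were fragile, while the direction was shared by most settings. No member was called without WT sham 3, WT sham 4, WT sham 5, Opg-/- sham 1 or Opg-/- sham 3, and 1 was called without WT den 2, WT den 3, WT den 5, Opg-/- sham 5, Opg-/- den 2, Opg-/- den 3, Opg-/- den 4 or Opg-/- den 5. Without the averaged WT sham pair, which was the lowest WT sham library for most members, 5 were called lower. Calls over all genes also grew without that pair, to 49 lower and 69 higher from 12 lower and 7 higher in the main fit. Over all alternatives, between 31 and 33 of the 34 genes stayed on the lower side. Alternatives that leave out a den library cannot move the sham fold changes, so they do not bear on this direction. Clec4a1, a C-type lectin of myeloid cells that is not among the 34 and was chosen after its values were seen, averaged 33.9 ± 6.57 (SD, n = 4) for WT sham and 10.3 ± 2.45 (SD, n = 5) for Opg-/- sham (log2 fold change of -1.63 ± 0.28 (SE), adjusted p = 0.0094).

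**Figure D4:**
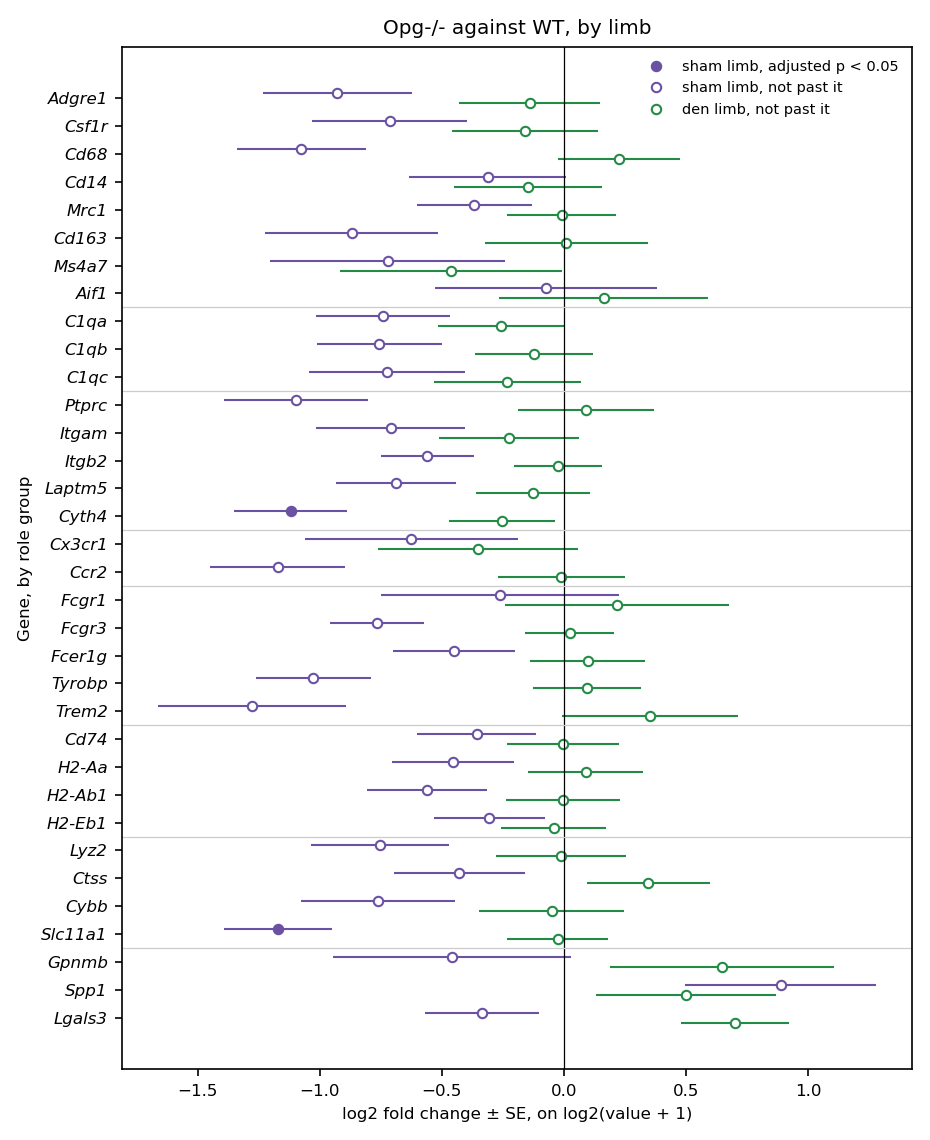
Log2 fold change of Opg-/- against WT (x axis, points with the SE as bars) for each of the 34 genes (y axis, by role group), in the sham limb (purple) and the den limb (green), with filled points for adjusted p under 0.05. Sham points lie below 0 for 33 of 34 genes and Slc11a1 and Cyth4 are the filled ones, while no den point is filled.

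In the den limb no member differed between the genotypes at adjusted p under 0.05, where 0.0613% of all genes tested were called in either direction. By limma 1 of the 34 genes, Lgals3, had an unadjusted p under 0.05, beside 1237 of all 17948 genes tested. Limma voom on recovered reads also called no member at adjusted p under 0.05. The median log2 fold change was -0.01, with 14 genes on the higher side and 20 on the lower. Lgals3 averaged 633 ± 158 (SD, n = 5) for WT den and 1046 ± 349 (SD, n = 5) for Opg-/- den (log2 fold change of 0.70 ± 0.22 (SE), adjusted p = 0.453). Gpnmb had a log2 fold change of 0.65 ± 0.46 (SE), adjusted p = 0.866, Ctss a log2 fold change of 0.35 ± 0.25 (SE), adjusted p = 0.869 and Spp1 a log2 fold change of 0.50 ± 0.37 (SE), adjusted p = 0.873. The values of the 2 den groups overlapped for all 34 genes. Overlap was also the usual case among all 17948 genes tested, of which 141 lay wholly higher and 122 wholly lower in Opg-/- den.

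The difference between the denervation responses was tested as an interaction, and no member passed at adjusted p under 0.05, where 0.00557% of all genes tested did. The interaction was positive, meaning a larger rise in Opg-/-, for 33 of 34 genes, with a median of 0.56 on the log2 scale beside -0.01 for all genes. At an unadjusted p under 0.05, 10 of the 34 passed, all positive, against 6.96% of all genes in either direction. The smallest p-values belonged to Slc11a1 (1.15 ± 0.30 (SE), adjusted p = 0.467), Tyrobp (1.12 ± 0.32 (SE), adjusted p = 0.467), Cd68 (1.30 ± 0.36 (SE), adjusted p = 0.467) and Trem2 (1.63 ± 0.53 (SE), adjusted p = 0.553). Limma voom on recovered reads called no member either. The Opg-/- sham libraries entered the interaction, the sham comparison and the Opg-/- response, and the WT sham libraries entered the interaction, the sham comparison and the WT response.

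**Figure D5:**
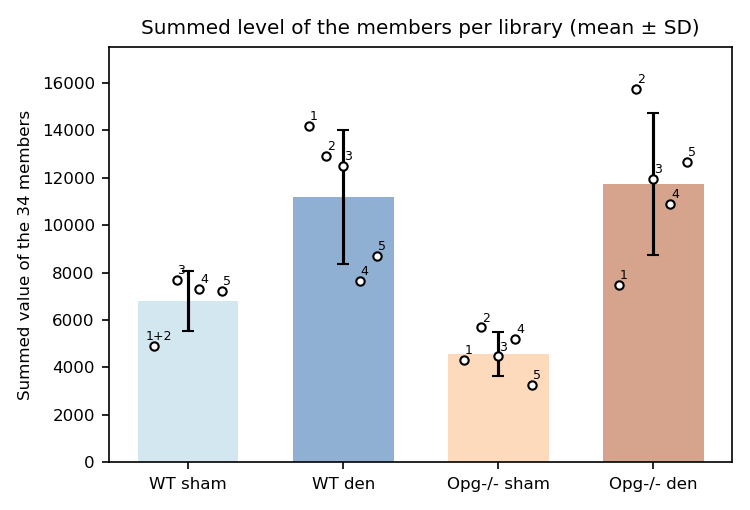
Summed value of the 34 genes (y axis) in each library (white points, numbered by replicate) by group (x axis), with bars at the group mean and error bars of 1 SD. Opg-/- sham lies lowest, both den groups lie higher, and WT den 4 and Opg-/- den 1 fall near the WT sham libraries.

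Summed over the 34 genes, a sum in which Cd74 and Lyz2 have the largest shares by their means, the level was 4925, 7705, 7297 and 7219 across WT sham and 4331, 5685, 4462, 5184 and 3251 across Opg-/- sham. It was 14165, 12892, 12490.0, 7645 and 8704 across WT den and 7494, 15714, 11921, 10874 and 12646 across Opg-/- den. The group means were 6787 ± 1259 (SD, n = 4), 4583 ± 926 (SD, n = 5), 11179 ± 2837 (SD, n = 5) and 11730 ± 2976 (SD, n = 5) in that order. The den mean was 1.65 times the sham mean in WT and 2.56 times in Opg-/-, and Opg-/- sham was 0.675 times WT sham. The WT den and WT sham sums overlapped at WT den 4, and the Opg-/- den and sham sums did not overlap.

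Genes of the same pathways outside the 34 were counted in the same fit, to be read against the 26.9% and 28.6% of all genes called higher. The values given for single genes are log2 fold changes, with WT before Opg-/-, and the medians beside each list are those of its tested genes. Of 14 tested chemokines and growth factors of myeloid cells, 5 rose and 2 fell in WT and 8 rose and 2 fell in Opg-/- (medians 0.38 and 0.80). Ccl8, a monocyte chemoattractant, averaged 15.2 ± 5.86 (SD, n = 4) for WT sham and 74.2 ± 36.9 (SD, n = 5) for WT den (log2 fold change of 2.12 ± 0.43 (SE), adjusted p = 2.0e-04), and 3.403 ± 2.75 (SD, n = 5) for Opg-/- sham and 83.7 ± 38.7 (SD, n = 5) for Opg-/- den (log2 fold change of 4.36 ± 0.41 (SE), adjusted p = 1.6e-09). Its sham difference did not pass (-2.04, adjusted p = 0.057). Ccl2, the ligand of Ccr2, rose in Opg-/- (2.59, adjusted p = 6.4e-06), while Cxcl12, a retention chemokine, fell in WT (-1.16) and Opg-/- (-1.05).

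Among 16 other complement genes, 6 rose and 2 fell in WT and 10 rose and 1 fell in Opg-/- (medians 0.39 and 0.53). C4b, which follows C1 in the classical pathway, rose by 1.22 in WT and 1.76 in Opg-/-, and Cd59a, an inhibitor of the terminal complex, fell by 1.04 and 0.98. Cfp, properdin, rose in Opg-/- (0.54). Of 16 other Fc receptor and ITAM genes, 7 rose and 1 fell in WT and 10 rose in Opg-/- (medians 0.68 and 1.19). Fcgr2b, the inhibitory Fc receptor, rose by 0.92 in WT and 1.62 in Opg-/-, and Sirpa, the receptor for the CD47 signal, by 0.75 and 1.53. Clec7a is not analysed here.

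Of 14 other genes of class II presentation, 3 rose and 1 fell in WT and 5 rose in Opg-/- (medians 0.20 and 0.24). Lgmn, a lysosomal endopeptidase, rose by 1.71 and 1.85, and Ifi30, a lysosomal thiol reductase, by 0.69 and 0.91. Ciita, the activator of class II genes, and H2-DMa, which loads peptides, rose in Opg-/- by 1.37 and 0.58 and had 0.43 and -0.28 in WT (adjusted p = 0.339 and 0.248). Of 5 other NADPH oxidase subunits, 1 rose in WT and 3 in Opg-/-, with Rac2 at 0.81 and 1.04, and with Ncf1 at 1.15 in Opg-/-. Of 15 tested genes of resident and alternatively activated macrophages, 1 rose in WT and 6 in Opg-/- (medians 0.32 and 0.43). Gas6, a ligand that bridges phagocytes to dying cells, rose in both (0.61 and 0.48). Mgl2 and Clec10a, lectins of alternatively activated macrophages, rose in Opg-/- (0.98 and 1.53) and had sham differences of -1.12 (adjusted p = 0.056) and -1.11 (adjusted p = 0.245).

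Of 11 tested inflammatory cytokines and sensors, 5 rose and 1 fell in each genotype (medians 0.85 and 0.98). Tlr2, a sensor of bacterial lipoproteins, rose by 2.15 in WT and 3.13 in Opg-/-, Myd88, its adaptor, by 1.12 and 1.20, and Ptgs2, a prostaglandin synthase, by 1.12 and 0.98. Of 20 genes of phagocytosis and lipid handling, 7 rose and 6 fell in WT and 8 rose and 3 fell in Opg-/-, with Ctsl, cathepsin L, at 2.31 and 2.39 and Lpl, lipoprotein lipase, at -1.67 and -1.87. Of 13 myeloid transcription factors, 2 rose and 6 fell in WT and 3 rose and 6 fell in Opg-/- (medians -0.24 and -0.10). Spi1, which encodes PU.1, averaged 39.2 ± 7.49 (SD, n = 4) for WT sham, 48.4 ± 17.9 (SD, n = 5) for WT den, 23.8 ± 10.2 (SD, n = 5) for Opg-/- sham and 63.5 ± 12.5 (SD, n = 5) for Opg-/- den, and rose in Opg-/- (log2 fold change of 1.44 ± 0.26 (SE), adjusted p = 2.8e-05). Irf5 fell in WT (-0.63, adjusted p = 0.0028), and Maf fell in both genotypes (-2.02 and -1.84). In the sham comparison, limma called 0 of the 136 genes of these lists and the pan-leukocyte list, and limma voom called 0. At an unadjusted p under 0.05, limma had 40 of the 136, beside 2146 of all 17948 genes tested, and limma voom had 24. Fitted sham levels were on the lower side in Opg-/- for 16 of 16 complement genes (median -0.23), 14 of 16 Fc receptor and ITAM genes (-0.57), 12 of 14 chemokines and growth factors (-0.50) and 10 of 11 inflammatory genes (-0.45), beside 0.02 for all genes. The lower side also held 12 of 15 resident and alternatively activated macrophage genes (-0.71), 5 of 5 NADPH oxidase subunits (-0.54), 9 of 12 pan-leukocyte genes (-0.51), 11 of 13 transcription factors (-0.13) and 11 of 14 class II presentation genes (-0.09). Phagocytosis and lipid handling genes were divided, with 12 of 20 on the lower side (-0.02) and 3 of the 4 at an unadjusted p under 0.05 on the higher side.

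Markers of other cells were counted beside the members, and their part in the results was not tested. Of 12 pan-leukocyte genes, 1 rose and 1 fell in WT and 6 rose and 1 fell in Opg-/-, with Cd52, Cd48 and Cd53 at 1.55, 1.63 and 1.06 in Opg-/- and Itga4 falling by 1.84 in WT and 2.03 in Opg-/-. Of 10 tested neutrophil genes, 1, S100a8, rose in each genotype (log2 fold change of 4.94 ± 0.93 (SE), adjusted p = 2.9e-04 in WT, log2 fold change of 4.58 ± 0.88 (SE), adjusted p = 3.2e-04 in Opg-/-). The neutrophil sum was 17.4 to 146 within WT sham, 204 to 314 within WT den, 1.12 to 146 within Opg-/- sham and 159.5 to 529 within Opg-/- den, while Cxcr2 stayed at means of at most 2.52, and Ly6g and Elane did not pass the filter. Of 7 tested monocyte genes, 3 rose and 1 fell in WT and 2 rose and 1 fell in Opg-/-, with Plac8 at 1.71 and 2.41 and Ace falling by 0.90 and 0.70. Their sum was 2055 to 2573 within WT sham, 987 to 1469.7 within WT den, 1519 to 2507 within Opg-/- sham and 988 to 1688 within Opg-/- den. The median log2 fold change of the 7 tested monocyte genes was nevertheless positive, 0.74 in WT and 0.40 in Opg-/-.

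Lymphoid, dendritic and mast cell lists had few calls. T cell genes (10 tested) summed to 17.8 to 43.5 within WT sham, 11.96 to 32.1 within WT den, 14.4 to 26.7 within Opg-/- sham and 13.8 to 23.6 within Opg-/- den, with 2 called higher and 1 lower in WT and 1 lower in Opg-/-, and Cd3e fell to a mean of 0.160 for WT den. NK cell genes (7 tested) summed to 1.10 to 8.24, 9.33 to 56.1, 2.42 to 10.7 and 22.7 to 66.5 in the same order, and 1, Gzmb, rose in each genotype (3.33 and 4.96). B cell genes (9 tested) summed to 846 to 1532, 138 to 449.7, 658 to 1101 and 144 to 197, with Ighm, the IgM heavy chain, falling in each genotype (-2.17 and -2.55) and Jchain rising in Opg-/- (1.16). Dendritic cell genes (9 tested) summed to 249 to 321, 224 to 312, 215 to 342 and 275 to 327, with 0 called in WT by limma or limma voom, 0 there at an unadjusted p under 0.05, and 1, Itgae, higher in Opg-/- by limma (1.28), where limma voom called 0 and had 1 at an unadjusted p under 0.05. Mast cell genes (6 tested) had 0 calls in either genotype by limma or limma voom and 0 at an unadjusted p under 0.05, with sums of 98.5 to 185, 84.5 to 228, 65.7 to 192 and 48.2 to 197.

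Most genes of muscle fibers and vessels fell. Of 10 muscle fiber genes, 2 rose and 7 fell in WT and 1 rose and 8 fell in Opg-/-, and Ckm and Casq1 fell by 1.53 and 1.99 in WT and by 1.89 and 2.43 in Opg-/-. All 8 endothelial genes fell in each genotype, with Pecam1 at -0.91 and -1.08 and Cdh5 at -1.11 and -1.21, with sums of 6688 to 7407 within WT sham, 2950.1 to 4103 within WT den, 6143 to 8149.6 within Opg-/- sham and 2858 to 3858 within Opg-/- den. Of 9 fibroblast genes, 1 rose and 5 fell in WT and 2 rose and 3 fell in Opg-/-, with Cd34 and Dpt falling and Pi16 rising in both. Of 6 tested red blood cell genes, 1 fell in WT and 4 in Opg-/-, Alas2 falling by 1.15 and 0.93. Of 6 satellite cell genes, 2 rose in each genotype and 2 fell in Opg-/-, with Cdh15 at 0.96 and 0.41, Sdc4 at 1.18 and 1.25 and Pax7 at -0.80 in Opg-/-. Between the sham groups limma called 0 of the 97 genes of the 12 cell type lists, and limma voom called 0. At an unadjusted p under 0.05, limma had 14 of the 97, beside 2146 of all 17948 genes tested, and limma voom had 13. All 10 muscle fiber genes were on the higher side in Opg-/- sham (median 0.20). The sham sum of muscle fiber genes was 2506400 to 3296370 in WT and 2883730 to 3778360 in Opg-/-, and that of fibroblast genes was 19406 to 29957 and 19364 to 29877. Of the 9 fibroblast genes, 8 were on the lower side in Opg-/- sham (median -0.29), 4 of them at an unadjusted p under 0.05 and 1 without overlap between the groups. The part of fibroblast RNA in the sham differences of the members was not tested.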

How the data were processed

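GAS RNA was sequenced on an Illumina NovaSeq with non-strand-specific libraries. Per the paper and the labels, the authors mapped reads to mm10 with STAR and estimated gene levels with RSEM (versions not given in the sources used here). The deposited signal values are estimated counts divided by 1 factor per library, with no correction for length, and reads shared by overlapping or closely related genes are split between them by estimation. Between 87.1% and 88.1% of values were whole multiples of 1 read (within 0.001 reads). Reads for limma voom and for depth were recovered by dividing each value by that of 1 read. Limma voom used them without rounding. A count test was not used, since the values are not raw counts.

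Genes that reached 1 in 4 or more libraries were fitted on log2(value + 1), a scale that understates the fold change of low genes, by limma 3.58.1 (R 4.3.3, trend and robust options) over all 4 groups, with two-sided tests, Benjamini-Hochberg adjustment over all 17948 genes and a threshold of 0.05. The fit was checked on simulated data. The groups follow the sample titles. The labels do not say whether a sham and a den library with the same number came from 1 mouse, and p-values measure the spread between these libraries. The paper states that the muscles of both sides were taken from all mice. Same-numbered deviations correlated between -0.04 and 0.06 over 9 pairs, which cannot show that the limbs came from different mice. The main fit used no pairing, and a fit with a replicate block was run as an alternative. Members and lists (22 lists, 250 genes, 249 in the table) were chosen with earlier results of these data known. Members given in full were, per comparison, the 6 called with the largest fold change or otherwise the 4 with the smallest p, and the highest of each role group; of other lists, the 2 genes with the smallest p after denervation and the 2 in sham, unless said otherwise. Promoters and gene positions were taken from RefSeq and GENCODE M21. Alternatives covered the filter, pseudocount, scaling, averaging, samples fitted, each library left out, the study's rule for differentially expressed genes, a block and voom. Python 3.11.15 was used for tables and figures.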

Additional observations from a re-analysis of the deposited data

Results flagged for a closer look

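In 6 of 140 groups of values examined (the 34 genes and their sum in 4 groups), 1 library stood far from the others of its group by Dixon's ratio, a test by which chance picks about 1 group in 20. Mrc1 was 575 in Opg-/- den 2, beside 314 in the next library. In Opg-/- sham 2, C1qa was 246 beside 162 and Itgam was 55.3 beside 32.4. In the averaged WT sham pair, Laptm5 was 159.5 beside 197.6 and Ctss was 72.5 beside 123. Spp1 was 188 in WT den 4, beside 245 in the next lowest library.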

How the results depend on the processing

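Of the 22 single-gene results named by rule, none changed sign over 589 alternative fits, and 31 fits, all for Cx3cr1 in WT and for Slc11a1 and Cyth4 in sham, lost the call. Many of these fits, such as those without a library of a group outside the comparison, leave the fold change as it was. Such fits could not change its sign, only the call. The number of members called higher in WT den, 17, became 7 when the log2 fold change also had to exceed 1. It became 31 with equal library totals and 10 to 24 with single libraries left out. In Opg-/-, 34 became 30 under the same fold rule and 31 to 34 with single libraries left out. Under the fold rule, 1721 of all 17948 genes tested were called higher in WT and 2055 in Opg-/-. The 2 sham calls became 0 without a filter on low values and 0 with limma voom, 1 when only the sham groups were fitted, and 0 to 5 with single libraries left out. Members called in den or as an interaction were 0 throughout (0 to 0 with single libraries left out). The summed level in Opg-/- den rose from 2.56 to 3.50 times sham with equal totals. The cause of these changes was not tested. With a replicate block, 15 members were called in WT, 34 in Opg-/-, 2 in sham, 0 in den and 0 as an interaction; the block changed no call of the named single-gene results. A count test on recovered reads was not run, since too few values were whole. Low reads limit Cx3cr1, Fcgr1, Aif1, Ms4a7 and Trem2 most. In Opg-/- sham, other members also rest on few reads per library, such as Slc11a1 (13 to 27), Cd68 (11 to 35) and Tyrobp (14 to 30).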

Other observations

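Among the listed genes outside the 34, 4 were chosen for closer description after their values were seen: S100a8 and S100a9 of the neutrophil list, Runx1 of the transcription factors and Tlr4 of the inflammatory genes. S100a8 rose without S100a9, the partner with which its protein forms calprotectin in neutrophils. S100a8 had 2.18, 1.18, 12.9 and 36.4 across WT sham, 252, 286, 239.7, 185 and 232 across WT den, 17.0, 8.80, 40.7, 0 and 19.1 across Opg-/- sham and 340.3, 195, 140.1, 305 and 397 across Opg-/- den. S100a9 had 4.71 to 40.8, 1.73 to 16.7, 0 to 25.1 and 0.810 to 65.3 in the same groups, with log2 fold changes of -1.18 in WT (adjusted p = 0.4) and 0.48 in Opg-/- (adjusted p = 0.729).

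Runx1, a transcription factor of blood cells, averaged 59.8 ± 19.9 (SD, n = 4) for WT sham and 3019.7 ± 151 (SD, n = 5) for WT den, and 51.8 ± 15.1 (SD, n = 5) for Opg-/- sham and 2996 ± 446 (SD, n = 5) for Opg-/- den. Tlr4, the lipopolysaccharide sensor, averaged 56.3 ± 18.8 (SD, n = 4) and 201 ± 17.8 (SD, n = 5) in WT and 42.7 ± 16.8 (SD, n = 5) and 209 ± 30.4 (SD, n = 5) in Opg-/- (adjusted p = 6.2e-07 and 5.7e-09). Whole muscle does not show which cells carried these transcripts.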
